A study of Sus scrofa with 4 samples.

Results

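The genes described here are IGFALS, IGFBP3 and IGFBP1, which encode carriers of the insulin-like growth factors (IGFs) in blood, with the further IGF and growth hormone receptor genes measured beside them. In all they are 8 genes read by 11 of the 15383 probe sets in the table, chosen by gene symbol and array description. IGFs circulate bound to carrier proteins, most of which are made in the liver. In the larger complex, an IGF sits on IGFBP3 (or IGFBP5) and the acid-labile subunit, encoded by IGFALS, closes the complex and keeps the growth factor in the circulation. IGFBP1 is a short-lived carrier that liver cells make when insulin is low and when cAMP, glucagon or glucocorticoids are high. Growth hormone, acting through its receptor GHR, JAK2 and STAT5B, drives hepatic transcription of IGF1 and IGFALS.

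Clenbuterol, a β2-adrenergic agonist that raises cAMP in its target cells, was mixed into the feed of 2 Chinese miniature pigs, while the vehicle controls, also 2, ate the feed alone. Dosing started once the animals were 8 weeks old and weighed 18 kg on average, at 25 mg/kg clenbuterol 2 times a day during an initial 4 weeks and at 50 mg/kg during a further 4 weeks. Livers labelled as 4 months old gave total RNA, which was hybridised to the Affymetrix porcine array, 1 array for each animal. The sample labels give a male as replicate 1 and a female as replicate 2 in both groups, so sex and replicate number cannot be told apart. The design text, however, speaks of full sibs of the same gender within a group, so kinship and sex are not certain. If the 2 pigs of a group were full sibs, kinship went with treatment and cannot be told apart from it.

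An array of this kind reads a transcript with a probe set, a group of short probes, and 1 gene can have several probe sets. Members were the probe sets listed under the symbols IGFALS, IGFBP1 or IGFBP3 whose array target description named the same gene, plus all probe sets whose description held the words insulin-like growth factor or growth hormone receptor. Over the whole array 1185 probe sets, for 986 genes, had a symbol and a description that matched. The 11 probe sets were for IGFALS (1 probe set), IGFBP3 (2), IGFBP1 (2), IGFBP2, IGFBP5, IGF1 (2), GHR and IGF2R, the last named from its target description alone. Tests were run on probe sets that reached 4 (log2 GCRMA) on 2 or more of the 4 arrays, which 9 of the 11 did. The second IGFBP1 probe set and the IGFBP5 probe set did not. IGF2 and IGF1R fell outside this choice because of the wording of their descriptions, and IGF2 is given further on with the other genes of the axis. Where a gene has several probe sets they are numbered from the brightest.

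The question was how 8 weeks of clenbuterol changed the RNA of these carriers. In the treated livers IGFALS RNA was higher, 1.64-fold, and the brighter IGFBP3 probe set was lower, 1.55-fold, while the brighter IGFBP1 probe set was at −0.02 (log2). By limma with Benjamini-Hochberg adjustment over 11931 probe sets, 3 of the 9 tested member probe sets passed an adjusted p of 0.05, 1 higher and 2 lower, beside 23.8% of all tested probe sets (11.4% higher and 12.4% lower). Of the 3, the dimmer IGF1 probe set entered the test through its control arrays alone, the group in which it was higher, so its call lends the count no weight. All samples are bulk liver, in which fewer cells of a type and less RNA per cell cannot be told apart.

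IGFALS encodes the acid-labile subunit, a hepatocyte product. Its probe set read 6.11 and 6.15 (log2 GCRMA) on the control arrays and 7.03 and 6.65 on the clenbuterol arrays. The groups did not overlap, and the spread was wider among the treated pigs, 6.84 ± 0.27 (SD, n = 2), than among the controls, 6.13 ± 0.03. The difference was 0.71 ± 0.15 (log2, SE), with a 95% interval from 0.31 to 1.11, which corresponds to 1.24-fold to 2.15-fold, and an adjusted p of 0.0361 by limma. A larger absolute difference was found for 12.5% of the tested probe sets. The array description calls the target a partial coding sequence.

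The IGFALS values in the second deposited table, the series intensities, had the same direction with a smaller difference. There the male control was at 7.98 and the treated male at 8.40 (log2 intensity), and the female control at 8.34 and the treated female at 8.87. The treated male thus exceeded the control male by 0.43, and the females differed by 0.53, but the female control lay only just below the treated male. The call was lost in these values (0.48, adjusted p = 0.197 by limma), without the filter on low values (adjusted p = 0.0622) and when either control array or the first clenbuterol array was left out (adjusted p from 0.0741 to 0.112).

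IGFBP3 encodes the main IGF carrier of adult serum. In rat liver its RNA is found mainly in non-parenchymal cells, unlike that of IGFALS and IGFBP1. Its brighter probe set read 12.64 and 12.45 (log2 GCRMA) on the control arrays and 12.05 and 11.77 on the clenbuterol arrays, so both treated pigs lay below both controls. The means were 12.55 ± 0.13 (SD, n = 2) and 11.91 ± 0.19. The difference was −0.64 ± 0.14 (log2, SE), with a 95% interval of 1.21-fold to 2.00-fold lower and an adjusted p of 0.0373 by limma.

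The dimmer IGFBP3 probe set, designed on the complete coding sequence, had a smaller difference. It read 7.98 and 8.11 on the control arrays and 7.78 and 7.85 on the clenbuterol arrays. The groups again did not overlap, and the difference of −0.23 ± 0.09 (SE) had an interval from −0.47 to 0.02 and an adjusted p of 0.147. The 2 probe sets thus share a sign, while only the brighter one passed, and the difference between them was not tested. Averaged, they were at −0.43 (adjusted p = 0.0319).

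In the series intensities the brighter IGFBP3 probe set was 12.73 in the male control and 12.15 in the treated male, and 12.66 in the female control and 11.95 in the treated female. The falls of 0.58 and 0.71 within the pairs are alike in size, and the mean difference of −0.64 passed there too (adjusted p = 0.0407, beside 11.1% of all tested probe sets). With the replicate number, which is also the sex, as a block, the adjusted p was 0.0508. Leaving out any 1 of the 4 arrays lost the call, with differences from −0.77 to −0.50 and adjusted p from 0.0652 to 0.123, as did testing without the filter (0.0615).

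**Figure D1:**
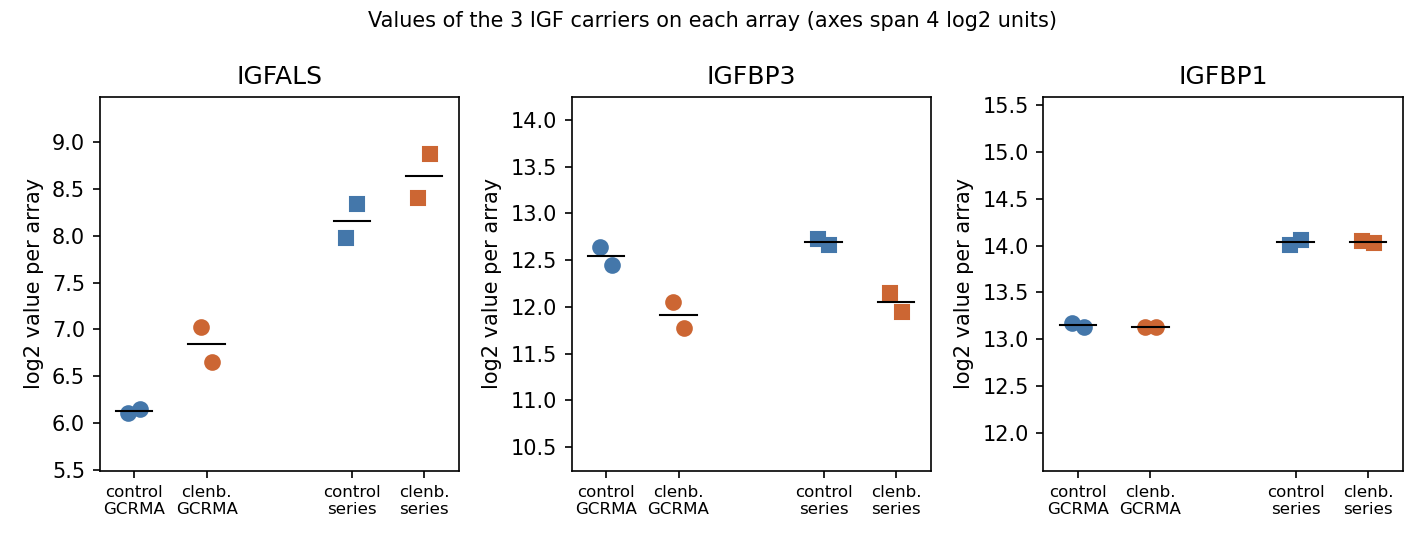
Log2 value of IGFALS, the brighter IGFBP3 probe set and the brighter IGFBP1 probe set on each of the 4 arrays, as GCRMA values (circles) and series intensities (squares), control in blue and clenbuterol (clenb.) in orange, with the mean of the 2 arrays as a line. Each axis spans 4 log2 units, IGFALS lies higher and IGFBP3 lower in both treated pigs, and the IGFBP1 points of the groups nearly coincide.

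IGFBP1 gave a bright and level signal. Its brighter probe set read 13.17 and 13.13 (log2 GCRMA) on the control arrays and 13.13 and 13.13 on the clenbuterol arrays. The difference was −0.02 ± 0.08 (SE) with an adjusted p of 0.889, and its 95% interval from −0.23 to 0.19 reaches neither the difference of IGFALS nor that of the brighter IGFBP3 probe set. A larger absolute difference was found for 94.7% of the tested probe sets. In the series intensities the values ran from 14.01 to 14.06, with 0.04 between the males and −0.03 between the females.

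The second IGFBP1 probe set lay near the bottom of the scale, at 2.50 and 2.57 in controls and 2.52 and 2.53 in treated pigs. It was below the filter on every array, and the levels of different probe sets are not comparable with each other. By gene order in the pig assembly Sscrofa11.1 IGFBP3 and IGFBP1 are next to each other on chromosome 18, with no other listed gene starting between them, and IGFALS is on chromosome 3. The 2 neighbouring genes thus gave a lower value and a value near 0 for the difference in the same livers.

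Of the other carriers, IGFBP2, a carrier that is prominent in fetal life and fasting, read 10.34 and 10.69 in controls and 10.47 and 10.85 in treated pigs. The groups overlapped, and the difference was 0.15 ± 0.19 (log2, SE; interval from −0.35 to 0.65; adjusted p = 0.602). Its sign depended on the table, at −0.11 in the series intensities. IGFBP5, which can also join the complex with the acid-labile subunit, was at 3.35 and 3.35 in controls and 3.17 and 3.38 in treated pigs, below the filter on every array.

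IGF1, the growth factor that the liver releases under growth hormone, was read by 2 probe sets. The dimmer one stood at 4.84 and 4.57 in controls and 3.66 and 3.69 in treated pigs, and was lower in both treated pigs. The difference was −1.03 ± 0.12 (log2, SE), with an interval from −1.35 to −0.71 and an adjusted p of 0.0113 by limma. Because both treated values lay below the filter of 4, this probe set was tested only through its control arrays, so its difference is given as a description, and its size rests on dim signals.

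In the series intensities this dimmer IGF1 probe set fell by 1.29 between the males and by 0.89 between the females, with a mean of −1.09. In the GCRMA values its difference ranged from −1.17 to −0.90 when 1 array was left out. The brighter IGF1 probe set, designed on a splice form, read 6.42 and 6.61 in controls and 6.11 and 6.40 in treated pigs. Its groups did not overlap, but the difference of −0.26 ± 0.14 (SE) did not pass (adjusted p = 0.252), and in the series intensities it was −0.33 between the males and −0.04 between the females. Which IGF1 transcripts each probe set reads was not analysed here.

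Of the receptors, GHR, the receptor that growth hormone binds on hepatocytes, read 8.00 and 8.23 in controls and 8.43 and 8.90 in treated pigs. Both treated values were above both controls, yet the difference of 0.55 ± 0.19 (SE; interval from 0.04 to 1.06) did not pass after adjustment (adjusted p = 0.109), and it ranged from 0.31 without the second clenbuterol array to 0.79 without the first. The series intensities gave 0.26 for the males and 0.59 for the females. IGF2R, the mannose-6-phosphate receptor that clears IGF2, read 10.07 and 10.23 in controls and 10.02 and 9.81 in treated pigs, at −0.23 ± 0.12 (adjusted p = 0.222). Leaving out 1 array moved IGF2R between −0.33 and −0.13 and the brighter IGF1 probe set between −0.40 and −0.11.

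**Figure D2:**
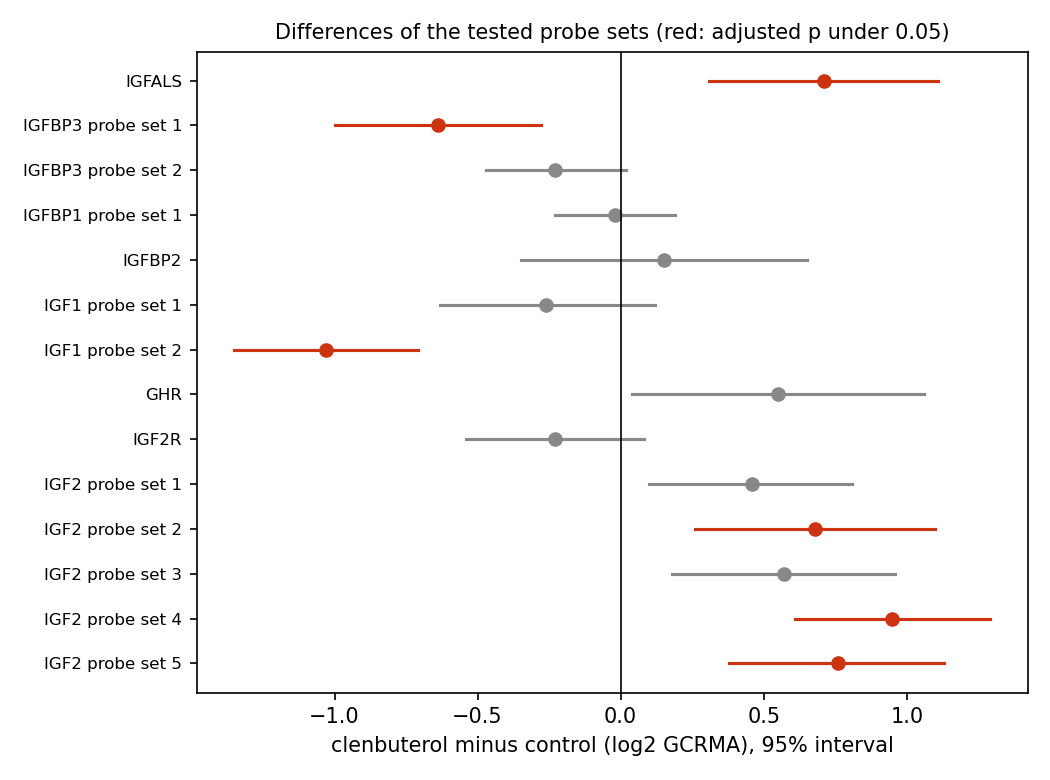
Difference between clenbuterol and control (log2 GCRMA) with its 95% interval from limma, for the 9 tested member probe sets and the 5 tested IGF2 probe sets, numbered from the brightest within a gene. Red marks an adjusted p under 0.05, which IGFALS, the brighter IGFBP3, the dimmer IGF1 and 3 of the IGF2 probe sets reached. The dimmer IGF1 probe set was tested only through its control arrays, so its mark is a description.

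Across the members the groups did not overlap for 7 of the 9 tested probe sets, beside 68.1% of all tested probe sets, so non-overlap of 2 arrays against 2 is common on these arrays. The male and the female pair of the series intensities had the same sign for 8 of the 9, beside 74.5% of all. The exception was the brighter IGFBP1 probe set, whose differences were both near 0. Both counts include the dimmer IGF1 probe set, which was tested only through its control arrays and so lends them no weight. With 1 pig per sex and group, whether males and females differed in response could not be tested.

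**Figure D3:**
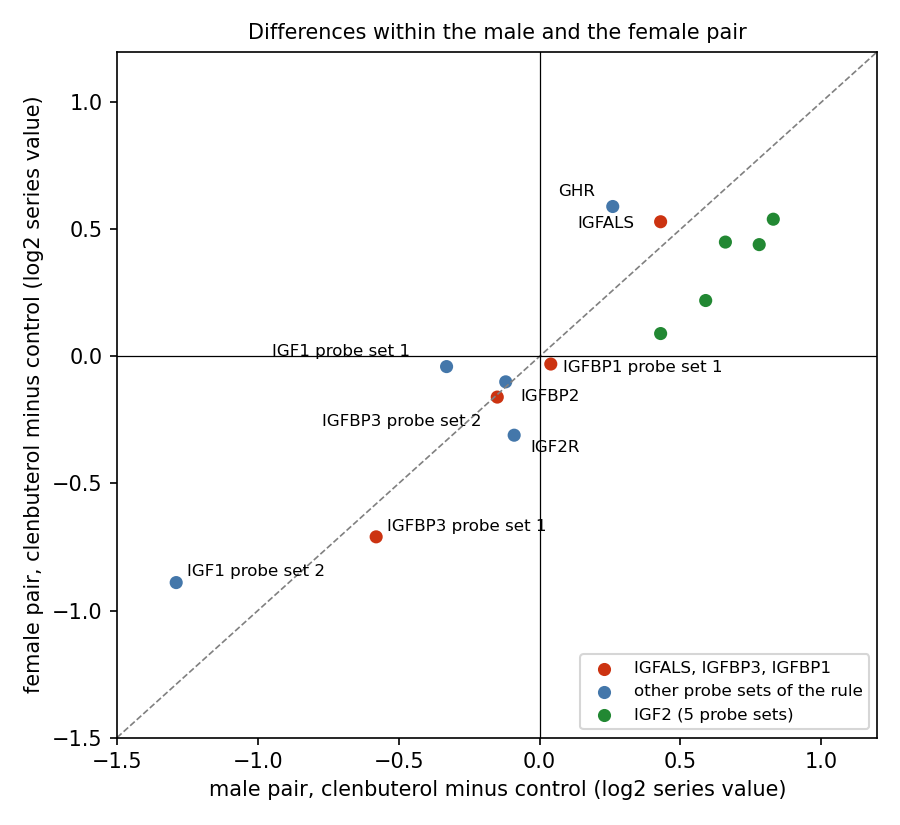
Difference between clenbuterol and control (log2 series intensity) within the male pair (horizontal) and within the female pair (vertical) for the 9 tested member probe sets and the 5 tested IGF2 probe sets, with the line of equality dashed. IGFALS lies at 0.43 and 0.53, the brighter IGFBP3 probe set at −0.58 and −0.71, and the brighter IGFBP1 probe set near the origin at 0.04 and −0.03.

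A list of 34 genes of the growth hormone and IGF axis had 9 tested genes, each taken by its brightest probe set, and 4 of these are the members GHR, IGF1, IGFBP2 and IGF2R already described. By limma 0 of the 9 passed in either direction, and 3 had an unadjusted p below 0.05, beside 26.4% of all 795 named genes that passed and 39.3% of all tested probe sets at the unadjusted level. The 3 were STAT3 (0.30 ± 0.08, log2, SE), IGF2 (0.46 ± 0.13) and GHR. The list median was 0.25 (log2), beside 0.10 over all named genes. JAK2, the kinase of the growth hormone receptor, was at 0.25 ± 0.10 and STAT5B, its transcription factor, at 0.30 ± 0.12, both short of the threshold. INSR, the insulin receptor, was at −0.77 ± 0.41.

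IGF2, the second ligand of these carriers, was read by 5 tested probe sets whose description named it. All 5 were higher in both treated pigs than in both controls, and the groups did not overlap for 68.1% of all tested probe sets. A probe set listed as IGF2 whose description does not name the gene went the other way (−0.61) and is given under the other observations. The brightest of the 5 was at 9.68 and 9.84 in controls and 10.36 and 10.08 in treated pigs and did not pass (adjusted p = 0.0730). Of the other 4, 3 passed by limma, at 0.68 ± 0.16 (adjusted p = 0.0456), 0.95 ± 0.13 (0.0143) and 0.76 ± 0.14 (0.0278), and 1 was at 0.57 ± 0.15 (0.0570). Of all tested probe sets 23.8% passed. The probe set with the largest difference read 8.50 and 8.76 in controls and 9.66 and 9.51 in treated pigs. These 5 probe sets share a transcript cluster and 2 of them the same described target, so they are not independent. In the series intensities only that probe set passed (0.69, adjusted p = 0.0361, and 0.0569 with the replicate block). Its call in the GCRMA values was lost without the first or the second clenbuterol array (0.0689 and 0.0573). The call at 0.68 was lost without the filter (0.0788) and without any 1 array (0.0501 to 0.141), and the call at 0.76 without either control array or the first clenbuterol array (0.0670 to 0.0887).

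IGFBP1 is set by cAMP, insulin and glucocorticoids, so other liver genes with such control were placed beside it, from a list of 30 genes of which 7 were tested. Of these, 3 rose and 1 fell by limma, against 26.4% of all named genes called. RGS2, a regulator of G-protein signalling that cAMP induces, read 8.00 and 7.97 in controls and 9.19 and 9.06 in treated pigs, a rise of 1.14 ± 0.09 (adjusted p = 0.0058). PPARGC1A, a coactivator of gluconeogenic genes, rose by 0.82 ± 0.10 (0.0119), and FOXO1, the insulin-restrained factor that drives IGFBP1 transcription, rose by 0.58 ± 0.08 (0.0156). CEBPB, a transcription factor of the acute phase and of gluconeogenesis, fell by 0.42 ± 0.09 (0.0348) but was at 0.00 after scaling to spikes. With 1 array left out, fewer genes of this list passed. RGS2 then ranged from 1.08 to 1.2, PPARGC1A from 0.73 to 0.9, FOXO1 from 0.55 to 0.62 and CEBPB from −0.47 to −0.37. In the series intensities CEBPB lost its call (−0.37, adjusted p = 0.0871 by limma). FOXO1 kept its call there (0.74, adjusted p = 0.0378) but lost it with the replicate block (adjusted p = 0.0593). RGS2 and PPARGC1A passed in the series intensities without and with the block. IGFBP1 was at −0.02 in the GCRMA values of the same livers. NR3C1, the glucocorticoid receptor, was at 0.58 ± 0.20 (0.109) and ANGPTL4 at −0.34 ± 0.09 (0.0580), and neither passed.

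The genes whose centred GCRMA values over the 4 arrays were nearest to those of a member were looked up among the other 794 named genes, by the root mean square difference. For IGFALS they were CCL4, LAMB1, MX1 and BIRC5, at 0.0208 to 0.0563 (log2). For IGFBP3 they were PCK2, BGN, TFG and NPEPPS, at 0.0826 to 0.102, of which BGN did not pass (−0.71, adjusted p = 0.0693). For IGFBP1 they were RPS29, FN1, RPS3A and GC, at 0.00674 to 0.00986, all with differences of −0.01. With 4 arrays such nearness describes only how close the centred values lie.

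Marker lists of liver cell types were read beside the carriers. The hepatocyte secretory genes ALB, TTR and TF were at 14.91 or above on all 4 arrays, while the APOB probe set was dim and scattered, at 4.42 and 5.19 in controls and 3.46 and 5.73 in treated pigs. By limma 0 of the 7 tested hepatocyte markers passed, and 0 had an unadjusted p below 0.05. The list's mean level was 13.41 and 13.54 (log2) in controls and 13.27 and 13.60 in treated pigs. Of 6 endothelial markers 2 were higher and 1 lower, with mean levels of 7.64 and 7.61 against 7.69 and 7.68. Of 6 Kupffer cell markers 2 were higher, with 11.46 and 11.48 against 11.83 and 11.75, and of 7 stellate cell markers 4 were higher and 1 lower, with 8.11 and 8.03 against 8.38 and 8.52. Over all 795 named genes 163 were higher and 47 lower, or 26.4% called. In these GCRMA values the Kupffer and stellate means were higher in both treated pigs than in both controls. The endothelial means were higher only by a small margin, and the markers went both ways, with CLDN5 at 0.94 and VWF at −0.96. In the series intensities CLDN5 was at 0.35 and PECAM1 at 0.17, but LYVE1 at −0.01, CDH5 at −0.10, ENG at −0.19 and VWF at −0.69. The part of cell composition in the carriers' values was not tested.

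A measure of RNA length also differed between the groups for most control pairs. The signed difference of 3′ minus 5′ control probe sets was lower in both treated pigs than in the controls of the same number for 7 of 10 pairs. For a GAPDH pair, for example, it was 1.68 and 1.81 (log2) in controls against 1.03 and 1.28 in treated pigs. Several of the 7 pairs read GAPDH, so they are not independent. An actin pair went the other way, from −2.65 and −2.04 in controls to −2.60 and −1.18 in treated pigs. So did the ErythRec pair, from 3.14 and 0.41 to 3.74 and 0.50, and the CTLA4 pair was lower in the male and higher in the female comparison. As the sign was kept, a lower value is a narrower gap only where it stays above 0. The part of RNA length in the carriers' values was not tested. All differences are relative to the scaling of the arrays. Setting the series intensities on a common level of the spiked bacterial control transcripts put the median difference over the tested probe sets at 0.35 (log2) and gave calls of 2959 higher and 254 lower, against 690 and 636 in the same intensities without it, and 1365 and 1478 in the GCRMA values. On that scale IGFALS was at 0.85 (adjusted p = 0.00852), or 0.50 above the median, the brighter IGFBP3 probe set at −0.27 (0.347), or −0.62 from the median, and IGFBP1 at 0.38 (0.171), or 0.03 from the median.

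**Figure D4:**
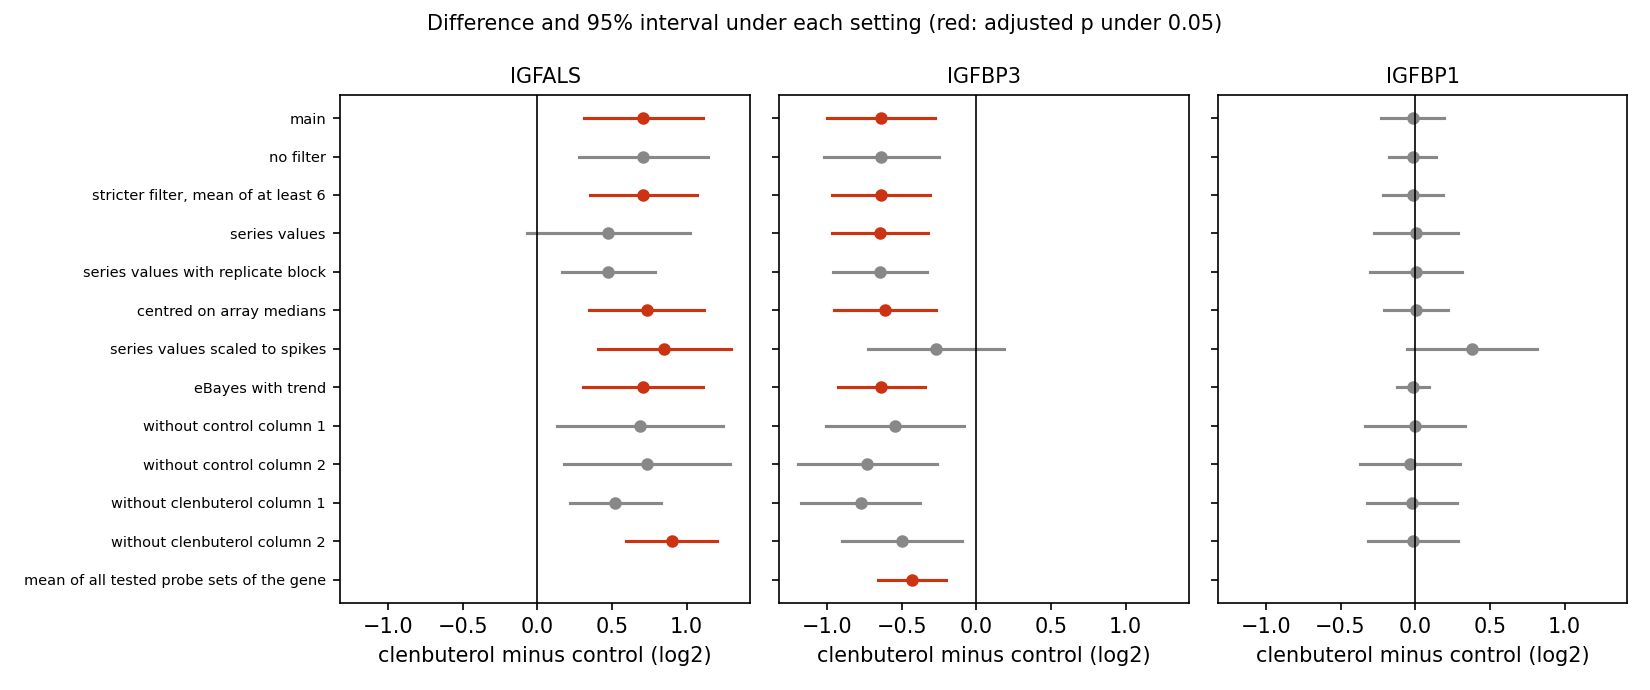
Difference between clenbuterol and control (log2) with its 95% interval for IGFALS, the brighter IGFBP3 probe set and the brighter IGFBP1 probe set in the main setting (top) and under each alternative. Red marks an adjusted p under 0.05, reached by IGFALS under 5 of 11 alternatives, by IGFBP3 under 5 of 12 and by IGFBP1 under 0 of 11. The 5 for IGFBP3 include the average of both its tested probe sets (−0.43), which is not the brighter probe set alone. The sign of IGFALS and of IGFBP3 was the same under all of those plotted.

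In the authors' deposited table the signed fold was 1.64 for IGFALS, −1.55 for the brighter IGFBP3 probe set and −1.01 for the brighter IGFBP1 probe set. The limma p in the authors' deposited table was 0.0599 for IGFALS and 0.0595 for the brighter IGFBP3 probe set. The SAM q-value there was 0.0741 for IGFALS and for the brighter IGFBP1 probe set. For both probe sets of IGFBP3, both of IGF1 and that of IGF2R it was 0.0. Of the 11 member probe sets only the dimmer IGF1 probe set was marked there as chosen by both limma and SAM (fold −2.05).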

How the data were processed

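The authors deposited log2 expression values; the method, GCRMA, is named in the submitters' processing notes and per the file headers, without version or settings. The column headers state no group, replicate number or sex. The group was taken from the deposited group means, which equal the mean of the columns of that group in every row. In each group the headers end in f and in pc, and the meaning of these endings is not stated. The deposited series table holds intensity values on a linear scale for 24123 probe sets, with replicate numbers. The sources used here do not say how they were made. The authors' deposited table also holds limma p-values, SAM q-values and a score, the signed fold, and those p-values lay within 0.0136 of Benjamini-Hochberg values recomputed over all 15383 probe sets.

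Symbols were updated by gene ID (2051 matched) and used only where the array description agreed. Probe sets at 4 or more on at least 2 arrays were tested with lmFit and eBayes of limma 3.58.1 (R 4.3.3), group alone. The brightest probe set stood for a gene. Members, lists and tests were chosen with earlier results of these data known. Every member is named. From each list up to 6 called genes, GHR, IGF1, PCK1 and PPARGC1A were to be named, with the 4 nearest genes per carrier, and genes outside this are given as further values of the lists. PCK1 was not among the tested genes of its list, so no value is given for it. The values of 1 further list gene are not reported here. On simulated data 49 of 50 changes of 1 (log2) and 27 of 50 of 0.585 were recovered among 11931 probe sets, with 11 false calls. The simulated spread was the moderated one, and far fewer probe sets were changed than were called in the data. These figures therefore do not give the recovery or the false calls in the data. The number of arrays limits the precision. Nothing beyond the labels shows that p-values cover more than the spread between these 4 pigs.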

Additional observations from a re-analysis of the deposited data

Results flagged for a closer look

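Some probe sets moved in opposite directions in the male and the female pair of the series intensities. Since each sex has 1 pig in a group, this difference was not tested. The brighter IGFBP1 probe set was at 0.04 (log2) for the males and −0.03 for the females. The second IGFBP1 probe set was at 1.02 and −0.44, and IGFBP5 at −0.01 and 0.23. The last 2 lay below the filter on low values in the GCRMA table.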

How the results depend on the processing

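The genes carried through the alternatives were the tested members, the IGF2 probe sets, the called cAMP, insulin and glucocorticoid genes and the nearest genes. They kept their sign except as given here, and the causes were not tested. For the other list genes and the cell type markers, signs were compared only between the GCRMA values and the series intensities. There the endothelial marker ENG (0.23 and −0.19) and the hepatocyte marker APOA1 (0.02 and −0.12) changed sign. The second IGFBP1 probe set and IGFBP5, below the filter, were not carried through the alternatives, and both went from below 0 in the GCRMA values (−0.01 and −0.07) to above 0 in the series intensities (0.29 and 0.11). The number of probe sets called fell from 2843 to 1326 in the series intensities, to 1054 with a replicate block and to between 579 and 1213 when 1 array was left out. In such fits the lone array of a group is assumed to vary like the other group. The deviations of same-numbered samples had a correlation of 0.18, and since there are only 2 numbers, which share a sex, the block is given here as an alternative and not as a pairing. IGFALS lost its call without the filter (0.71) and in the series intensities without and with a replicate block (both 0.48, adjusted p = 0.0752 with it), and ranged from 0.52 to 0.90 when an array was left out. IGFBP3 lost its call without the filter (−0.64), with the replicate block (−0.64) and after scaling to spikes (−0.27), and ranged from −0.77 to −0.50. IGFBP1 changed sign in the series intensities without and with the block (0.01), after centring on array medians (0.00) and after scaling to spikes (0.38), and ranged from −0.04 to 0.00 without 1 array. The growth hormone and IGF list went from 0 called genes to 2 with the stricter filter or with a trend in eBayes (IGF2 and STAT3) and to 4 after scaling to spikes (GHR, IGF2, STAT3 and STAT5B). The list of cAMP, insulin and glucocorticoid genes went from 4 to 2 with the block, and to between 1 and 2 without 1 array. Scaling to spikes changed the sign of the dimmer IGFBP3 (0.22), the brighter IGF1 (0.19), IGF2R (0.18), CEBPB (0.00), NPEPPS (0.08), RPS29 (0.26), FN1 (0.31), RPS3A (0.39) and GC (0.29). Centring did so for RPS29 (0.01), FN1 (0.02), RPS3A (0.01) and GC (0.02), and the series intensities, without and with the block, for IGFBP2 (−0.11) and RPS3A (0.02). Without 1 array IGFBP2 ranged from −0.04 to 0.34, FN1 from −0.02 to 0.01, GC from −0.01 to 0.00 and RPS29 from −0.03 to 0.00.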

Other observations

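The deposited annotation lists 1 further probe set each under IGF2 and IGF1R whose array description does not name the gene. The one listed as IGF2 went against the 5 others, from 11.49 and 11.51 (log2 GCRMA) in controls to 11.07 and 10.72 in treated pigs (−0.61 ± 0.14, SE, adjusted p = 0.0461 by limma). The one listed as IGF1R was at −0.45 ± 0.14 (adjusted p = 0.0788). The probe set described as IGF1R itself lay between 1.82 and 1.83 on the 4 arrays, below the filter.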
